A study of Rattus norvegicus with 108 samples.

Results

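The kinesin and dynein motor genes described here are the 50 genes, of 19127 in the count tables, whose symbols are Kif or Klc followed by a digit or begin with Dync, Dynll or Dynlt. The rule uses the symbol alone and no measured value, but it was set with earlier results of these data known. Single-cell RNA profiles (10x Genomics 3′ chemistry, which counts unique molecular identifiers, UMIs, near the 3′ end of a transcript) came from tissue punched out of the hippocampal dentate gyrus of male Long-Evans rats, taken at its dorsal end (dorDG) or its ventral end (venDG). The rats were 2 months old at the start. FT animals received fluoxetine, a serotonin reuptake inhibitor, at 18 mg/kg in the drinking water for 6 weeks, and Sham animals received water. The dorDG FT group had 4 replicates (numbers 1, 2, 4 and 5) and the dorDG Sham, venDG FT and venDG Sham groups had 5 each, every replicate being a pool of animals, so that p-values measure the spread between pools. After columns with an unexplained suffix were left out, the tables held 1289 dorDG and 2058 venDG cells.

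Kinesins and cytoplasmic dynein are ATP-driven motors that walk along microtubules. Most kinesins move cargo towards the growing plus ends, which in axons point to the terminal, and cytoplasmic dynein 1, together with its activator dynactin, carries cargo back towards the cell body. Other kinesins do not carry cargo but shorten microtubules or work in the mitotic spindle, and a second dynein serves the cilium. Neurons and myelinating oligodendrocytes, whose processes are long, depend on this traffic.

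Levels are given as UMIs of a gene per 10000 UMIs of all genes, summed over the cells named. They are not divided by transcript length, because only the 3′ end is counted, so the order of genes is an order of UMI counts. A replicate contributed 1 value to each group, never 1 per cell, and because a sum holds all cells of a replicate, fewer cells of a type and less RNA per cell cannot be told apart. Replicates held 490584 to 1105869 UMIs in dorDG and 220162 to 1523537 in venDG. The authors' names of the 12 dorDG cell types were checked against marker genes. The Mossy cells had the highest levels of the mural cell genes Vtn (7.89), Rgs5 (4.43) and Pdgfrb (3.23) and also held the endothelial gene Flt1 (15.9), and of their 4 mossy cell markers Gal (0.212, on 10 UMIs) was higher there than in any other type, Calcrl (1.40) was below OPC (2.39), Ociad2 had 1 UMI and Calb2 was at 0 UMIs, which allows a level of up to 0.0637. In the InhibNeuron cells Slc32a1, the vesicular GABA transporter, was at 0 UMIs (a level of up to 0.0296) and Gad1 was at 0.296, below the Granule cells (0.487). The inhibitory marker Gad2 was higher there (0.217, on 22 UMIs) than in any other type, as was the granule cell factor Prox1 (1.88). Of 4 granule cell markers 3 were highest there, with a summed level of 8.18. Of 4 excitatory markers 2 were highest there, with a sum of 9.80, below ExcitNeuron (12.3). The 4 inhibitory markers summed to only 0.799 there. This was below AstroSub1 (3.26), BergGlia, ExcitNeuron, Granule and OPC, and above the other types. The Granule cells held haemoglobin RNA (Hba1 at 429) and Prox1 at 0.901. The names are used below as labels of the authors only.

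The members contributed 0.324% of all UMIs in dorDG and 0.322% in venDG. All 50 were detected in both regions, the rarest in dorDG with 6 UMIs, but 35 lay below 0.5 UMIs per 10000 in dorDG, 12 of them below 0.1, and only 8 reached 1. The 5 most abundant genes held 52.1% of the members' UMIs. Kinesin-3 motors gave 9.44 UMIs per 10000 in dorDG and the dynein light chains 8.54, followed by the dynein-1 subunits at 5.31 and the kinesin-1 heavy chains at 2.47. The 8 mitotic kinesins of families 5, 6, 8, 10 and 12 together gave 0.532.

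Among the light chains, Dynll1 led all members with 7.10 UMIs per 10000 in dorDG and 8.17 in venDG. Dynll1 is the LC8 light chain, which also binds many proteins outside dynein. RefSeq lists related copies or pseudogenes of Dynll1, Dynlt1, Kif1c, Kif11, Kif13a and Kif18b, so the counts of these genes are uncertain. The other light chains Dynlt3 (0.507), Dynll2 (0.478) and Dynlt1 (0.457) were far lower. Among the dynein-1 subunits the dorDG order was Dync1i1 (1.58), an intermediate chain found mainly in neurons, then the heavy chain Dync1h1 (1.43), which holds the motor domain, the widely expressed intermediate chain Dync1i2 (1.28) and the light intermediate chain Dync1li2 (0.717). The ciliary dynein-2 subunits Dync2h1 (0.452) and Dync2li1 (0.215) were lower than these.

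Among the kinesins, the kinesin-3 motor Kif1b (4.73), a carrier of mitochondria and synaptic vesicle precursors, was the most abundant, followed by its relatives Kif13a (2.03) and Kif13b (1.06). The conventional kinesin-1 heavy chains stood in the order Kif5b (1.18), Kif5a (0.807) and Kif5c (0.476), of which Kif5a and Kif5c are the neuronal forms. Their cargo-binding light chains Klc2 (0.266), Klc1 (0.134) and Klc4 (0.121) were each below every heavy chain in UMI counts. The kinesin-13 motor Kif2a (0.713), which takes microtubules apart, and the kinesin-4 motor Kif21a (0.665), which slows their growth, lay between these, as did the kinesin-2 motors Kif17 (0.479) and Kif3a (0.398). Among the mitotic kinesins of families 5, 6, 8, 10 and 12 the most abundant were Kif11 (0.132), Kif23 (0.121) and Kif18b (0.0897). Kif2c (0.246), Kif4a (0.0571) and Kif14 (0.0505) were not counted there but with kinesin-13, kinesin-4 and kinesin-3.

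The region just before the start of 2 members is shown because Dync1i1 and Dynll1, an intermediate chain and a light chain of the same motor complex, moved in opposite directions between the classes of cells and between FT and Sham in dorDG, as described below. The sequences are from RefSeq (rat assembly GRCr8) and end at the base before the annotated start, at chr4:34819191-34819440 for Dync1i1 and chr12:46972827-46973076 for Dynll1, both on the plus strand, 250 bases each. Capitals mark the GC box (GGGCGG or its complement CCGCCC) and the CCAAT box (CCAAT or ATTGG).
Dync1i1: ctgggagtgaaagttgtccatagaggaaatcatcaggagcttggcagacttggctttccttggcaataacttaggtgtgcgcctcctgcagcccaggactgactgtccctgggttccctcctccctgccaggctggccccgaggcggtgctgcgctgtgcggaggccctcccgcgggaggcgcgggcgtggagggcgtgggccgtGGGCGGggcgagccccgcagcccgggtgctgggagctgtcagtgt
Dynll1: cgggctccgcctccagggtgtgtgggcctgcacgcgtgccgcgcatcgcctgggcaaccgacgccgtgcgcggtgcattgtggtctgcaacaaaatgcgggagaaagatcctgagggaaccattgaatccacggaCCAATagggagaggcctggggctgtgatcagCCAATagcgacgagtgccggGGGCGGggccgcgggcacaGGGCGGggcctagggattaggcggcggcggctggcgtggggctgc
Dync1i1 held 1 GC box and 0 CCAAT boxes, and Dynll1 held 2 of each. Both were rich in G and C, at 67.6% and 68.8%. Of the 50 members 40 had an entry, of which 32 held a GC box and 16 a CCAAT box. Over all 33465 entries of that length, more than the 19127 genes of the count tables, 30.5% held a GC box and 34.0% a CCAAT box. The share among genes of like level is not given, so no trait of the members is read from this. A match describes the letters only, and binding was not measured.

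Across the dorDG cell types the members took from 0.161% of UMIs in Microglia2 to 0.420% in ExcitNeuron. InhibNeuron (0.401%) and OPC (0.388%) came next and both microglial types came last. No test was made between types, because the types had been built from the expression of all genes, these included. The mix also differed between types. Kinesins held 68.1% of the members' UMIs in AstroSub1 and 41.4% in Endothelial.

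Outside InhibNeuron, ExcitNeuron and Granule the dynein-1 subunits lay between 1.61 and 5.56 UMIs per 10000, with Mossy, also a neuron label, at 4.20. They were highest in InhibNeuron (8.74), ExcitNeuron (8.58) and Granule (6.35). Dync1i1 was the largest part of the sum in each of these 3 types and reached 4.39 (range over 6 replicates 1.77 to 5.60) in InhibNeuron, 4.05 (1.74 to 10.7, 4 replicates) in ExcitNeuron and 2.63 (0.785 to 6.04, 9 replicates) in Granule. In Endothelial it was 1.11 (0.252 to 1.89), and the remaining types lay at or below 0.756. The replicate ranges of the 3 leading types overlapped each other, and each also overlapped that of Endothelial. The highest replicates of AstroSub1 (2.71), OPC (1.99) and Microglia2 (1.89) reached into these ranges as well. The other intermediate chain, Dync1i2, varied less, from 0.498 in Microglia2 to 1.85 in InhibNeuron. The heavy chain Dync1h1 was highest in Endothelial (2.18) and Microglia2 (2.02), where its replicates spread from 0.825 to 7.0 and from 0.413 to 12.6. The ciliary heavy chain Dync2h1 was led by InhibNeuron (1.05), ExcitNeuron (0.940) and Granule (0.657).

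Dynll1 was highest in OPC (12.4, replicates 6.95 to 20.1), Oligodend2 (11.5, 7.31 to 20.4) and Mossy (10.3, 7.4 to 12.5), 3 types whose ranges overlapped, and lowest in Microglia2 (2.74), Granule (3.14) and AstroSub1 (3.94). The 3 types with the highest Dync1i1 were not among the 3 with the highest Dynll1. These types also differed in their share of cells with under 2% ribosomal protein UMIs, the ribosome-poor class described below. That class made up 79.6% of InhibNeuron, 80.0% of ExcitNeuron and 79.8% of Granule. It made up 27.6% of OPC, 12.6% of Oligodend2 and 11.1% of Mossy. Its part in the orders of types given here was not tested. The other light chains were each highest in the small BergGlia type, Dynll2 and Dynlt1 at 1.81 and Dynlt3 at 1.41, on 9, 9 and 7 UMIs.

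Kinesin-3 motors were highest in Oligodend1 (15.1 UMIs per 10000) and Oligodend2 (12.9), followed by AstroSub1 (11.6). Kif13b, a motor that binds the scaffold protein Dlg1 in myelinating cells, stood at 2.62 (1.09 to 4.14) in Oligodend1 and 2.37 (1.48 to 3.38) in Oligodend2, and at 1.04 or less elsewhere. Kif13a, which moves endosomes, was highest in the same types, at 4.12 in Oligodend1 and 3.03 in Oligodend2, and lowest in Microglia2 (0.591). Kif1b differed less among the leaders, with 7.10 in AstroSub1, 6.52 in Oligodend1 and 6.36 in InhibNeuron, and was lowest in Endothelial (1.80). The ranges of the leading types overlapped in each of these orders.

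The 3 kinesin-1 heavy chains did not share a leading type. Kif5b, the form found in most tissues, was highest in AstroSub1 (2.45). Kif5a was highest in ExcitNeuron (1.59) and Kif5c in InhibNeuron (1.10), where it stood beside 0.0424 in Mossy. Kif17, which carries NMDA receptor subunits into dendrites, was also highest in InhibNeuron (1.28, replicates 0.748 to 1.82). Kif26b, a kinesin without known motor activity, was highest in ExcitNeuron (1.49) and InhibNeuron (1.18). Kif21a was highest in Oligodend2 (1.22) and Oligodend1 (1.08), and lowest in Mossy (0.149). Kif23, a kinesin of cell division, had 27 of its UMIs in Endothelial (0.398) and 18 in Mossy (0.382), with 7 or fewer in every other type, and was measured too thinly for an order.

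**Figure D1:**
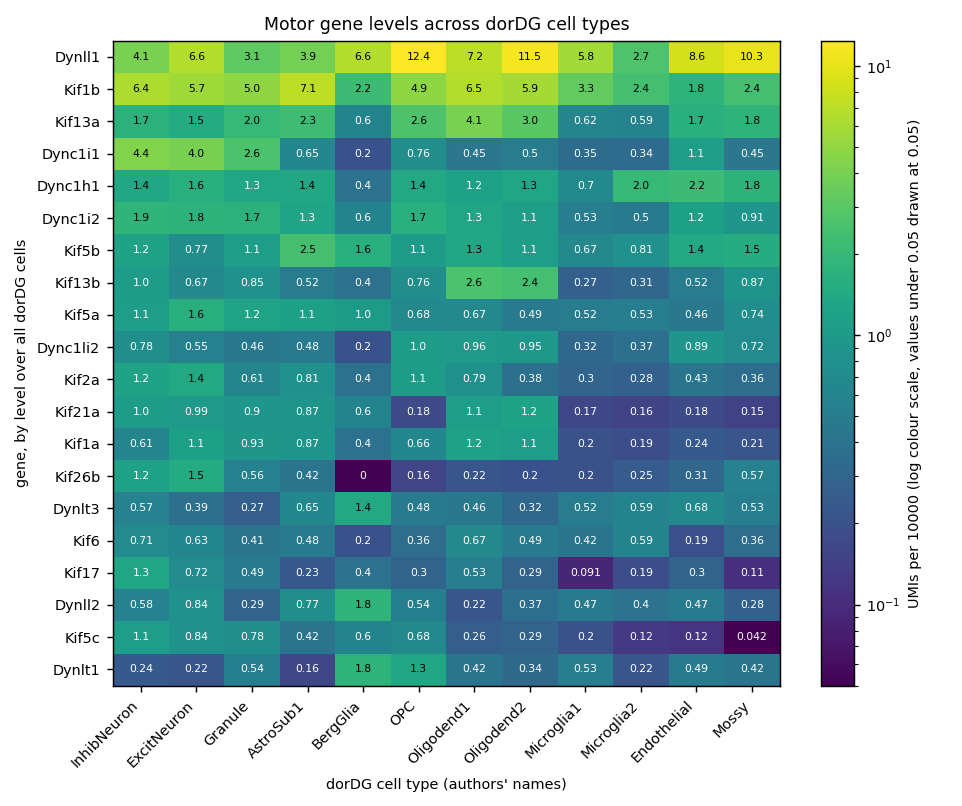
Levels of the most abundant motor genes (rows, ordered by level over all dorDG cells) in the 12 dorDG cell types named by the authors (columns), as UMIs per 10000 on a logarithmic colour scale. Dync1i1 stands out in InhibNeuron (4.39), ExcitNeuron (4.05) and Granule (2.63), and Kif13b in Oligodend1 (2.62) and Oligodend2 (2.37).

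The cells also fell into a class with few ribosomal protein transcripts and the rest. Of the 3347 cells, 1226 had under 2% of their UMIs in 120 cytosolic ribosomal protein genes (512 in dorDG, 714 in venDG) and are called ribosome-poor, and 177 cells lay within 0.5 percentage points of that boundary. Whole cells and nuclei were both prepared according to the study's methods, the labels name nuclei alone, and which reaction held which is not given in the sources used here. Ribosome-poor cells were compared with the other cells of the same replicates, with the replicate as a block, over 9 dorDG and 10 venDG replicates. Calls required an adjusted p (Benjamini-Hochberg, over all genes tested) no higher than 0.2 in the edgeR quasi-likelihood test and an absolute log2 fold change no lower than 0.32, thresholds that the study used. In this comparison 85.4% of all genes tested were called in dorDG and 83.1% in venDG. Of the members 19 were tested in each region, and 13 were called in dorDG (10 higher in ribosome-poor cells, 3 lower) and 14 in venDG (11 higher, 3 lower). Both shares, 68.4% and 73.7%, were below the background. Replicate ranges of the classes did not overlap for 6 of the 19 members in dorDG, against 34.6% of all genes tested, and for 2 of the 19 in venDG, against 34.3%.

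Dynein subunits moved in opposite directions. Dync1i1 stood at 1.33, 3.68 and 5.54 UMIs per 10000 (lowest, median and highest replicate) in ribosome-poor dorDG cells and at 0.329, 0.658 and 1.18 in the other cells. It was higher in ribosome-poor cells in 9 of 9 dorDG replicates without overlap of the ranges, and the log2 fold change was 1.79 ± 0.22 (SE, edgeR adjusted p = 3.8e-07). In venDG it was higher in 10 of 10 replicates, by 1.59 ± 0.20, with ranges that overlapped at their ends. Dynll1, in contrast, stood at 1.08, 1.70 and 3.47 in ribosome-poor dorDG cells and at 6.85, 8.76 and 12.7 in the other cells. It was lower in all 9 replicates and in all 10 of venDG, with no overlap in either region, and fell by 2.80 ± 0.22 in dorDG (edgeR adjusted p = 6.2e-10) and by 2.54 ± 0.20 in venDG on the log2 scale.

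The other light chains lay on the side of Dynll1. Dynll2 was tested in venDG only and fell by 1.2 ± 0.21 on the log2 scale (edgeR adjusted p = 1.9e-05). It passed the filter of a mean of 0.5 through the other cells there (median 0.680 against 0.395), so its direction was not free. Dynlt3 and Dynlt1 were below the filter in this comparison. Dynlt3 was lower in ribosome-poor cells in 9 of 9 dorDG replicates (median 0.171 against 0.608, ranges not overlapping) and in 8 of 10 in venDG, and Dynlt1 in 9 of 9 (0.171 against 0.579) and 9 of 10. The ciliary heavy chain Dync2h1 lay on the side of Dync1i1, with medians of 1.06 against 0.244 in dorDG and a log2 fold change of 1.48 ± 0.21 there and of 1.29 ± 0.23 in venDG. Dync2h1 passed the filter through the ribosome-poor cells in both regions (median 0.245 in the other venDG cells), so its direction was not free either.

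The kinesins that were called were all higher in ribosome-poor cells. In dorDG they were Kif26b (1.61 ± 0.25 on the log2 scale), Kif17 (1.33 ± 0.20), Kif6 (1.23 ± 0.23), Kif16b (1.21 ± 0.21), Kif5c (1.08 ± 0.25), Kif21a (0.92 ± 0.20), Kif2a (0.83 ± 0.19) and Kif5a (0.69 ± 0.25). In venDG they were the same genes without Kif17, which was not tested there, and with Kif1a (0.98 ± 0.18), a carrier of synaptic vesicle precursors. The filter was a mean of 0.5 over both classes. In the other dorDG cells the medians of Kif26b (0.232), Kif17 (0.268), Kif6 (0.298), Kif16b (0.290), Kif5c (0.268), Kif21a (0.414) and Kif2a (0.474) lay below it. In venDG those of the called kinesins except Kif5a lay at 0.214 to 0.454. A gene below 0.5 there passes only if it is higher in ribosome-poor cells, so the shared direction cannot be read as a result. Kif21a was the kinesin whose ranges did not overlap in either region, with medians of 0.874 against 0.414 in dorDG and 1.39 against 0.427 in venDG. The abundant Kif1b, Kif13a, Kif13b and Kif5b were not called, at log2 values from -0.01 to 0.28 in dorDG and from 0.15 to 0.26 in venDG. For Kif1b the levels in dorDG nonetheless did not overlap (4.89 to 7.99 against 3.51 to 4.54).

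This difference between levels and fitted values came from the scaling. The normalization factors (trimmed mean of M values, TMM) set the median log2 fold change of all genes to 0.14 in dorDG and 0.06 in venDG, relative log expression factors set it to -0.02 and -0.05, and library totals alone, a setting chosen after seeing the data and the one that matches levels per 10000, set it to 0.55 and 0.51. With totals alone 16 members were higher and 1 lower in dorDG, and 15 higher and 2 lower in venDG, with Kif1b, Kif13a, Kif13b and Kif5b among the higher. Of all called genes 51.3% were higher in venDG with TMM factors and 61.7% with totals alone. Dync1i1 (2.19 in dorDG with totals alone) and Dynll1 (-2.40) held their directions and calls. The calls of Dync1h1 (-0.48 ± 0.21 in dorDG) and Dync1li2 (-0.63 ± 0.22 in dorDG, -0.47 ± 0.16 in venDG) were lost with totals alone, at -0.07 for Dync1h1 and -0.22 and -0.02 for Dync1li2. Dync1i2 was called in venDG (0.39 ± 0.16) and was at 0.28 with an edgeR adjusted p of 0.115 under relative log expression factors. The uncalled values of Kif5b and Dync1i2 turned negative in dorDG with those factors, and that of Kif13b went from -0.01 to -0.17, and that of Dync1h1 in venDG turned from -0.16 to 0.29 with totals alone.

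**Figure D2:**
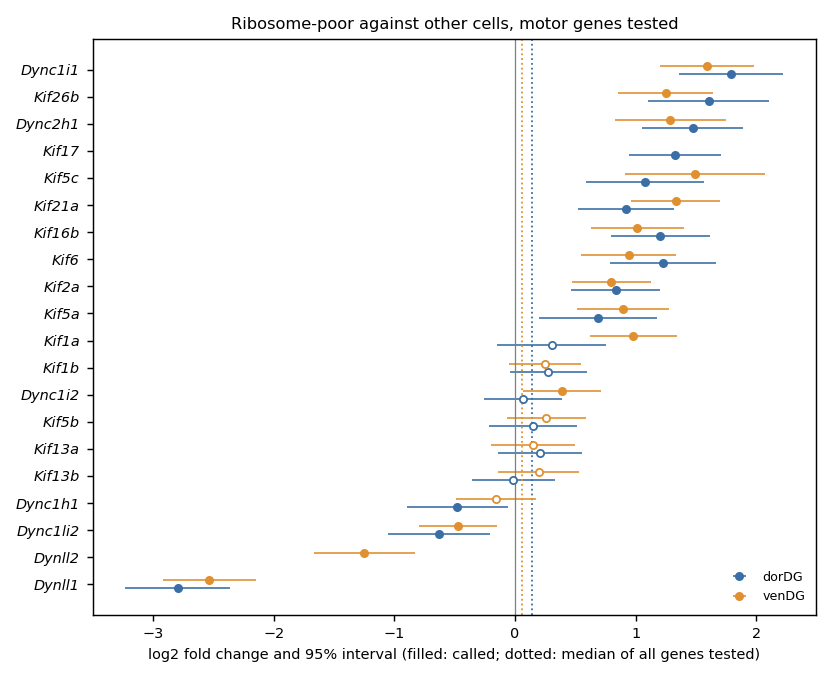
Log2 fold changes of the tested motor genes between ribosome-poor and other cells of the same replicates in dorDG and venDG (points), with 95% intervals from the standard error (bars) and a line at 0. Dync1i1 lies at 1.79 and 1.59 and Dynll1 at -2.80 and -2.54.

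**Figure D3:**
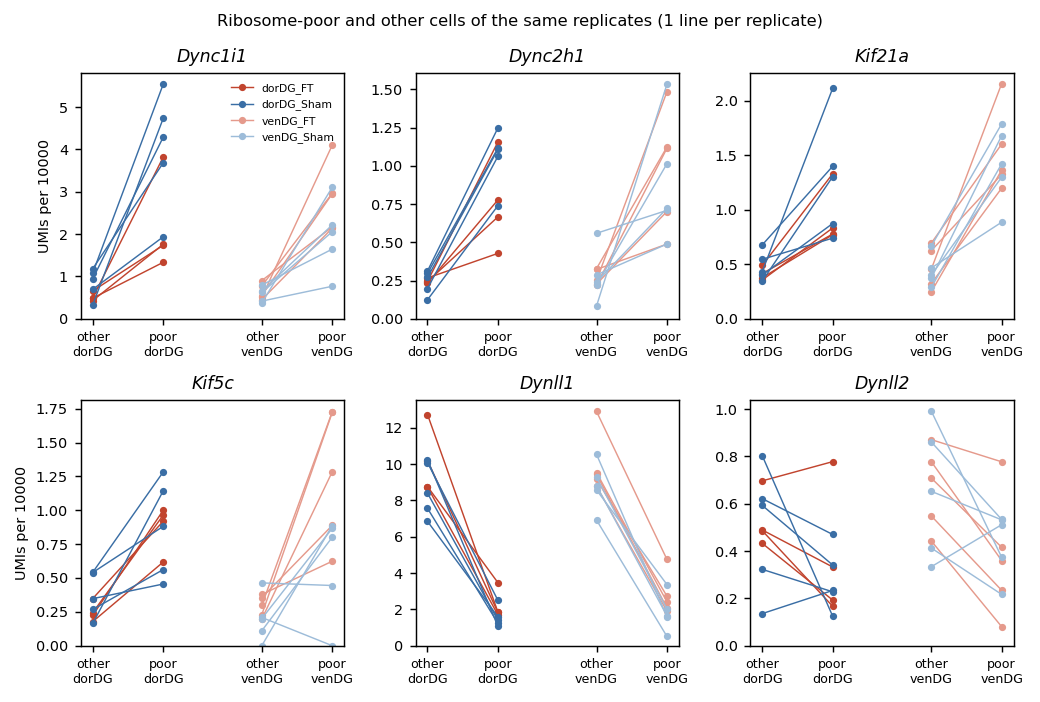
UMIs per 10000 of selected motor genes in the other and the ribosome-poor cells of each replicate, 1 line per replicate, for dorDG and venDG. Every Dync1i1 line rises towards the ribosome-poor cells and every Dynll1 line falls, from a median of 8.76 to 1.70 in dorDG.

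The classes also differed in their cells. Of the ribosome-poor dorDG cells 50% were labelled Granule, InhibNeuron or ExcitNeuron, against 8.37% of the others, and the median UMIs per cell were 2024 against 5156. In the 6 types with at least 20 cells of each class, Dync1i1 was higher in the ribosome-poor cells of 6 and Dynll1 was lower in 6. InhibNeuron had 5.23 against 2.35 UMIs per 10000 of Dync1i1 and 1.34 against 10.8 of Dynll1. OPC, labelled as glia, had 1.36 against 0.653 and 2.03 against 14.2. Further, Kif2a, Kif21a, Kif1a, Kif26b, Kif13a and Kif5b were higher in 6 of 6 types and Dynlt3 lower in 6. These are levels per 10000, the scaling that sets the median gene higher in ribosome-poor cells, as given above. The share of all genes higher in 6 of 6 types is not given. Over all dorDG cells Kif1a (0.14), Kif13a (0.05) and Kif5b (-0.01) were not called with relative log expression factors.

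Within a type the comparison could be tested in AstroSub1 and Oligodend1, the remaining types having too few replicates with both classes. In AstroSub1, where 38.4% of all genes were called, 8 of 16 members were called. Kif5b (1.67 ± 0.56 on the log2 scale), Kif21a (1.87 ± 0.92), Kif13a (1.24 ± 0.56) and Kif1b (0.99 ± 0.40) were higher, and Dynll1 (-1.71 ± 0.49), Dynlt3 (-2.63 ± 1.16), Dynll2 (-2.19 ± 0.98) and Dync1h1 (-2.04 ± 0.80) were lower. In Oligodend1, where 52.8% of all genes were called, 3 of 15 members were called, namely Dynll1, which fell by 3.51 ± 0.55 on the log2 scale (edgeR adjusted p = 5.3e-09), Kif6 (2.02 ± 0.76) and Dync1i1 (2.05 ± 0.90). The split of all calls depended on the scaling here: the higher share was 37.4% in AstroSub1 with TMM factors and 62.5% with totals alone, and 43.5% in Oligodend1 with TMM factors, 32.6% with relative log expression factors and 63.3% with totals alone. With totals alone 8 members were higher and 1 lower in Oligodend1, and 6 higher and 4 lower in AstroSub1.

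Partners of the motors were drawn from lists of other genes of the pathway. Their calls stand beside 85.4% of all genes tested in dorDG (1986 higher, 1760 lower) and 83.1% in venDG (1856 higher, 1764 lower). Dynactin, the activator that links dynein to cargo, had 6 of its 11 genes tested in dorDG, and 5 were called, all lower in ribosome-poor cells, from Actr1a (-0.84 ± 0.21), its actin-related filament subunit, to Dctn3 (-1.84 ± 0.20). In venDG 6 of 7 were called and all were lower. Of 14 adaptors and regulators tested in dorDG, 8 were higher, led by the presynaptic scaffold Ppfia2 (2.37 ± 0.20) and the dynein adaptor Bicd1 (1.56 ± 0.19), and 3 lower, led by the kinesin-1 adaptor Fez1 (-2.48 ± 0.19). Of 14 microtubule-associated proteins 5 were higher, among them Mapt (0.94 ± 0.16), which encodes tau, and 8 lower, led by Stmn1 (-3.42 ± 0.30), a tubulin-binding protein. Of 4 related subunits whose symbols fall outside the members, 3 were higher and 1 lower in each region. The lower one in dorDG was the roadblock light chain Dynlrb1, a dynein subunit, which fell by 2.05 ± 0.18 on the log2 scale. These values are relative to the median of all genes given above, which moves with the scaling.

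The classes followed the reactions. In 8 replicates the labels list 2 reactions, and the share of ribosome-poor cells was 4.08% to 15.5% in the first and 78.3% to 95.9% in the second, whereas the 11 single reactions ranged from 14.5% to 72.0%. Dync1i1 was higher in the second reaction in 8 of 8 replicates, at 1.86 to 4.62 against 0.305 to 0.807 in the first. Kif21a was also higher in 8 of 8. Dynll1 was higher in the second in 0 of 8, at 1.15 to 2.17 against 6.79 to 12.6, and Dynlt3 likewise in 0 of 8.

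The question of the study was what fluoxetine changed. In all dorDG cells the members had 15 genes above the filter of a mean of 0.5 UMIs per 10000, and 4 were called between FT and Sham (26.7%), against 28.6% of all genes tested. Of the 15 members 12 had a negative log2 fold change, with a median of -0.21 against -0.04 for all genes. The replicate ranges of FT and Sham were separate for 2 of the 15, against 8.21% of all genes tested, and neither was among the 4. Under the filter the ranges of Kif17 (mean 0.342 in FT against 0.615 in Sham) and Kif9 (0.0913 against 0.281), a kinesin of motile cilia, were also separate, with every FT replicate below every Sham replicate. Over all 50 members 4 had separate ranges. The share among all genes under the filter is not given, so these are not shown to stand out.

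Dync1i1 stood at 1.13, 0.746, 0.571 and 0.754 UMIs per 10000 in the FT replicates of dorDG (numbers 1, 2, 4 and 5) and at 2.31, 1.07, 4.20, 1.84 and 2.00 in Sham replicates 1 to 5. Most Sham replicates were above all FT replicates, the exception being Sham replicate 2, and replicate 3 was far above the others. It fell by 1.40 ± 0.32 on the log2 scale (edgeR adjusted p = 0.155). Kif21a stood at 0.483, 0.689, 0.403 and 0.411 in FT and at 0.778, 0.605, 1.18, 0.526 and 0.962 in Sham, with FT replicate 2 above Sham replicates 2 and 4, and fell by 0.59 ± 0.26 (edgeR adjusted p = 0.186).

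The 2 light chains tested rose. Dynll1 stood at 7.4, 10.1, 9.34 and 8.29 UMIs per 10000 in FT and at 5.24, 5.25, 3.83, 8.09 and 5.57 in Sham. Of the Sham replicates 4 were below all of FT, and replicate 4 lay inside the FT range. The log2 fold change was 0.73 ± 0.26 (edgeR adjusted p = 0.166). Dynlt3 stood at 0.739, 0.542, 0.723 and 0.463 in FT and at 0.425, 0.346, 0.347, 0.559 and 0.370 in Sham, again with overlap through Sham replicate 4, and its log2 fold change was 0.67 ± 0.24 (edgeR adjusted p = 0.166). Its Sham mean of 0.409 lay under the filter of 0.5, which it passed through FT (0.617).

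Kif1b and Kif13a were the 2 members tested whose groups did not overlap, though neither was called. Kif1b stood at 3.99, 4.28, 4.42 and 3.97 in FT and at 5.14, 4.53, 6.48, 4.80 and 5.38 in Sham, for a log2 fold change of -0.25 ± 0.21 (edgeR adjusted p = 0.42). Kif13a stood at 1.64, 1.72, 1.95 and 1.83 in FT and at 2.07, 2.16, 2.67, 1.97 and 2.70 in Sham (-0.29 ± 0.21, edgeR adjusted p = 0.34). Every FT replicate lay below every Sham replicate for both. Kif2a (-0.45 ± 0.23, edgeR adjusted p = 0.209) and Kif13b (-0.47 ± 0.23, 0.203) missed the threshold narrowly, and DESeq2 and limma called both in addition to the 4. The 95% interval ran from -0.51 to 0.28 for Dync1i2, from -0.65 to 0.37 for Dync1h1 and from -0.36 to 0.44 for Dync1li2 on the log2 scale, so that these subunits were not shown to be alike in the groups.

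**Figure D4:**
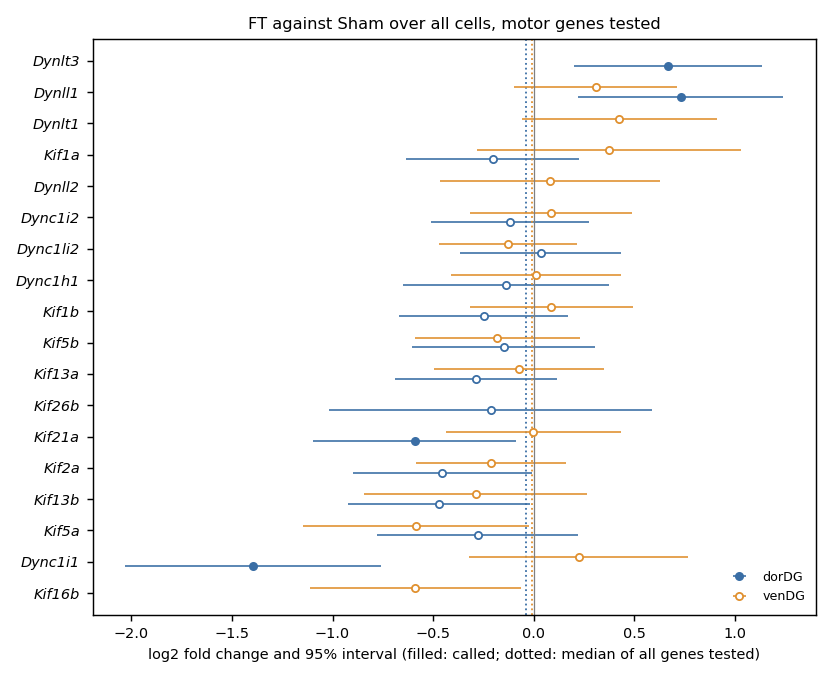
Log2 fold changes of the tested motor genes between FT and Sham in dorDG and venDG (points), with 95% intervals from the standard error (bars) and a line at 0. In dorDG Dync1i1 lies at -1.40 and Dynll1 at 0.73, whereas in venDG they lie at 0.22 and 0.31 and no gene was called.

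**Figure D5:**
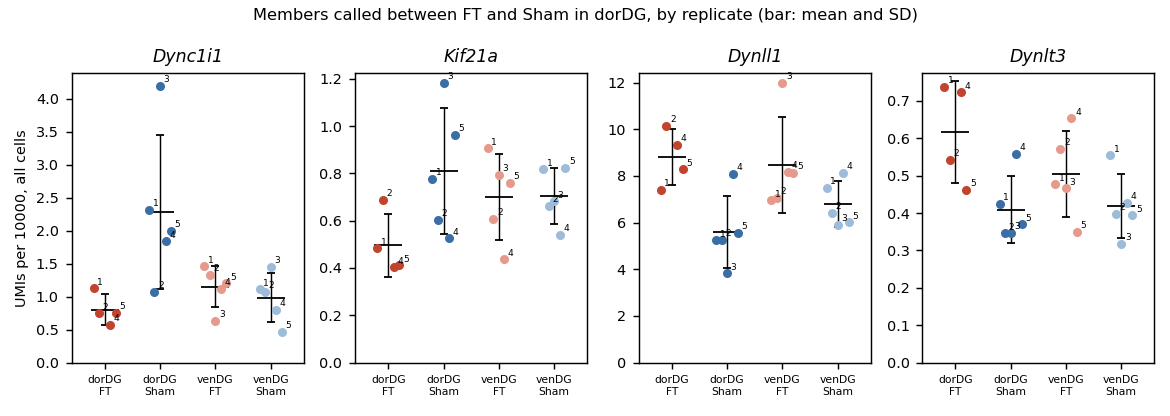
UMIs per 10000 of the 4 genes called between FT and Sham in dorDG (Dync1i1, Kif21a, Dynll1 and Dynlt3), 1 point per replicate, with the mean and SD of each group, for dorDG and venDG. The FT and Sham points of dorDG overlap for each gene, and Sham replicate 3 is the highest for Dync1i1 (4.20) and the lowest for Dynll1 (3.83).

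The make-up of the replicates also differed between FT and Sham. Ribosome-poor cells made up 14.5% to 42.1% of the cells in FT and 31.9% to 72.0% in Sham, InhibNeuron cells 2.54% to 9.79% in FT and 0% to 31.0% in Sham, and 5 neuronal marker genes 0.0508% to 0.0968% of UMIs in FT and 0.0657% to 0.247% in Sham, with Sham replicate 3 highest in each. Without Sham replicate 3, edgeR called 0 members (3 at an unadjusted p under 0.05), with Dync1i1 at -1.11 (edgeR adjusted p = 0.241) and Dynll1 at 0.59. Leaving out 1 of FT replicates 4 and 5 or Sham replicates 1 and 5 also gave 0, with at most 1 gene called of all those tested in each of these 5 fits. Leaving out FT replicate 1 gave 2 members, where 11.1% of all genes were called, and leaving out Sham replicate 2 or 4 gave 7, where 46.8% and 43.0% were. Without InhibNeuron cells, a setting chosen after seeing the data, 0 were called as well (Dync1i1 -1.28, edgeR adjusted p = 0.243). By edgeR 3 members were then at an unadjusted p under 0.05. Within ribosome-poor cells alone edgeR called 0 (Dync1i1 -0.65, Dynll1 0.65) and within the other cells 0 (Dync1i1 -0.68, Dynll1 0.21), with 0 at an unadjusted p under 0.05 in each. DESeq2 was not run on these subsets. The share of all genes called is not given here for these fits or for the fit without InhibNeuron cells. Their counts of 0 cannot be read as particular to the members. In the paired reactions Dync1i1 averaged 0.452 in FT and 0.471 in Sham in the first and 3.16 against 3.36 in the second, with overlap in both, whereas the single reactions stood at 0.571 to 0.754 in FT and 1.84 to 4.20 in Sham. Dynll1 was higher in FT without overlap in the first (8.49 to 12.6 against 6.79 to 8.46), the second (1.81 against 1.55 to 1.58) and the single reactions (8.29 to 9.34 against 3.83 to 8.09). Each of these sets held 2 reactions of FT and 2 or 3 of Sham and was not tested. How much of the change in dorDG came from these shares was not tested.

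Partner genes were called in the same comparison, in which 28.6% of all genes were, and these calls were lost where 1 of FT replicates 4 and 5 or Sham replicates 3 and 5 was left out, since 0 genes were then called. Of 6 dynactin genes tested in dorDG 2 were higher in FT, Actr1a (0.53 ± 0.19) and the capping protein Capzb (0.49 ± 0.22), and 0 were lower. Of 13 adaptors and regulators 2 were lower, Ppfia2 (-1.47 ± 0.40) and Bicd1 (-0.94 ± 0.30), and of 14 microtubule-associated proteins only Map7 (-0.58 ± 0.23), a recruiter of kinesin-1, was called. Of 3 related subunits tested, the dynein-2 intermediate chain Wdr60 was lower (-0.61 ± 0.24).

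In venDG 16 members were tested and 0 were called by edgeR, against 0% of all genes tested. At an unadjusted p under 0.05 there was 1 member, Kif16b, among 236 genes, and DESeq2 called 0 members and 22 genes. The replicate ranges of FT and Sham were separate for 0 of the 16 members, against 0.735% of all genes tested. Dync1i1 stood at 1.46, 1.33, 0.637, 1.12 and 1.20 in FT and at 1.11, 1.08, 1.45, 0.798 and 0.466 in Sham, with ranges that overlapped widely (0.22 ± 0.28 on the log2 scale, edgeR adjusted p = 0.88). Dynll1 stood at 6.96, 7.07, 12, 8.18 and 8.14 in FT and at 7.49, 6.43, 5.90, 8.14 and 6.02 in Sham (0.31 ± 0.21). Its direction was that of dorDG, and the interval, from -0.09 to 0.71, included 0 and ended just below the dorDG value of 0.73. Kif16b, a kinesin-3 motor of early endosomes, stood at 0.524, 0.391, 0.230, 0.381 and 0.457 in FT and at 0.50, 0.605, 0.908, 0.405 and 0.681 in Sham, overlapping, with -0.59 ± 0.27 and an edgeR adjusted p of 0.76. Its FT mean of 0.397 lay under the filter, which it passed through Sham (0.620).

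Whether the effect of fluoxetine differed between regions was tested as an interaction over all 4 groups. Of 14 members 0 were called by edgeR, against 0% of all genes tested, with 1 member and 394 genes at an unadjusted p under 0.05. That member was Dync1i1, at -1.66 ± 0.45 on the log2 scale (edgeR adjusted p = 0.52), and DESeq2 called it, 1 of 8 genes it called. The difference in Dynll1 was 0.39 ± 0.31.

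Regions were compared within treatments. In Sham animals 0 of 16 members were called by edgeR between dorDG and venDG, against 0% of all genes tested, with 1 member and 361 genes at an unadjusted p under 0.05. That member was again Dync1i1, at 1.07 to 4.20 in dorDG and 0.466 to 1.45 in venDG, overlapping, with a log2 fold change of 1.11 ± 0.33 (edgeR adjusted p = 0.33). Same-numbered Sham replicates of the regions deviated together, and with the replicate as a block 105 genes were called and Dync1i1 was the 1 member among them (1.05, edgeR adjusted p = 0.124). DESeq2 called 155 genes and this member. Without Sham replicate 3 of dorDG the unblocked value was 0.81. In FT animals 0 of 16 members were called, against 0.275% of all genes tested (11 genes), with 0 members at an unadjusted p under 0.05 and 0 among the 148 genes called by DESeq2. There Dync1i1 stood at 0.571 to 1.13 in dorDG and 0.637 to 1.46 in venDG (-0.51 ± 0.26). The 2 comparisons of regions and the 2 of treatments share samples, and their values are given side by side only.

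Within the dorDG cell types 9 of the 12 could be tested between FT and Sham, with 6 to 15 members each. In 8 of these types 0 members were called by edgeR, where 0% to 0.0581% of all genes were, and 1 member stood at an unadjusted p under 0.05 across them (Dync1h1 in Microglia2, -1.85 ± 0.65, edgeR adjusted p = 0.97). DESeq2 called 0 members in these types. The ninth was Oligodend1, where 6.15% of all genes were called and 1 of 14 members, Kif2a. In that type it stood at 0.199, 0.208, 0.273 and 0.575 UMIs per 10000 in FT and at 1.40, 0.919, 1.48, 0.483 and 1.23 in Sham, with overlap of FT replicate 5 and Sham replicate 4, and rested on 9 and 42 UMIs. Its FT mean of 0.314 lay under the filter of 0.5, which it passed through Sham (1.10). It fell by 1.75 ± 0.50 on the log2 scale (edgeR adjusted p = 0.147), a call that was lost when 1 of FT replicates 1, 4 and 5 or Sham replicates 1, 2 and 3 was left out, the log2 values running from -2.18 to -1.53 over all 9. Dynll1 in Oligodend1 stood at 7.78, 8.75, 8.46 and 9.35 in FT and at 6.57, 5.15, 7.68, 3.14 and 6.26 in Sham without overlap (0.65 ± 0.25, edgeR adjusted p = 0.208), and was called by DESeq2. Ribosome-poor cells made up 28.1% of the Oligodend1 cells in FT and 64.5% in Sham. Over all Oligodend1 cells Kif2a stood at 1.75 in the ribosome-poor and 0.545 in the other cells, and Dynll1 at 1.22 and 8.69. The part of this share in both differences was not tested.

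Dync1i1, the member with the largest change over all dorDG cells, was not called in any type tested. In Granule it stood at 3.36, 1.10, 0.785 and 1.80 in FT and at 5.44, 1.45, 6.04, 2.20 and 4.56 in Sham (-0.88 ± 0.53, edgeR adjusted p = 0.61). In InhibNeuron, which was not tested because only 2 FT replicates had 5 cells, it stood at 3.01 and 1.77 in FT and at 5.35, 5.60, 4.41 and 3.93 in Sham. Ribosome-poor cells, in which Dync1i1 was higher, made up 37.0% of the InhibNeuron cells in FT and 89.2% in Sham, and 71.7% and 84.9% of the Granule cells, and their part in these values was not tested. In ExcitNeuron the 1 FT replicate stood at 1.74 and the 3 Sham replicates at 10.7, 8.78 and 2.45. In Endothelial the groups overlapped, with 0.252 to 1.24 in FT and 0.572 to 1.89 in Sham (-0.50 ± 0.45).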

How the data were processed

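The authors sequenced 27 reactions and deposited raw UMI count tables of filtered cells, 1 per region, made with Cell Ranger against a rat genome that their processing notes name as rn5. They named the dorDG cells with Seurat 3 clustering. The deposited log-scale venDG values were not used, nor were 170 venDG columns with a suffix that no label explains, of which 167 repeat a barcode. A further 9 barcodes occur in more than 1 reaction. No doublet caller was run.

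Counts were summed per replicate, and per cell type or class where stated with at least 5 cells, and tested with edgeR 4.0.16 (quasi-likelihood test, TMM factors, R 4.3.3) on all genes whose mean reached 0.5 UMIs per 10000, Benjamini-Hochberg adjusted over all of them. Cell types were tested with at least 3 such replicates per group. DESeq2 1.42.0 and limma 3.58.1 (on log2 of UMIs per 10000 plus 0.01), other scalings and filters, subsets of cells, the replicate block and left-out replicates were alternatives. The scripts were tested on simulated counts. Intervals are Poisson or from standard errors and cover, for pooled counts, counting error only. The 36 pairs of replicates within groups differed by more than sampling noise (chi-square per degree of freedom 2.97 to 17.1).

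The members, lists and the 2% boundary of ribosomal UMIs were chosen with earlier results of these data known. Named genes were those called, up to 6 per direction and comparison, and the 3 most abundant per subunit group, and Kif1a, Kif9 and Dynlt1 were named after their values were seen. Same-numbered Sham replicates of dorDG and venDG have the same number in the labels and deviated together (correlations 0.196 to 0.547 over 5 pairs).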

Additional observations from a re-analysis of the deposited data

Results flagged for a closer look

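Of 76 groups of replicate values (19 members in 4 groups), 6 held a replicate set apart from the others of its group by the Dixon criterion, which by chance marks about 1 group in 20. Dync1h1 reached 2.27 UMIs per 10000 in venDG Sham replicate 3, against 1.33 to 1.48 in the others. Dynll1 reached 12 in venDG FT replicate 3, against 6.96 to 8.18. Dynll2 reached 0.712 in dorDG FT replicate 1, against 0.411 to 0.454, and Kif26b reached 1.03 in dorDG FT replicate 2, against 0.218 to 0.295. Kif1a reached 1.06 in dorDG Sham replicate 3, against 0.608 to 0.722, the replicate with the highest share of ribosome-poor cells (72%) in dorDG. Kif2a was low, at 0.377, in dorDG FT replicate 5, against 0.631 to 0.639. The part of single replicates in these values was not tested.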

How the results depend on the processing

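Counts of members called kept within 1.5 times of the reported count in 251 of 294 alternatives, and gene values kept direction and call in 691 of 798. The first share includes comparisons whose reported count was 0 and stayed at 0. Where members were called, the count held in 4 of 19 alternatives for FT against Sham in dorDG and 6 of 16 in Oligodend1. Between the classes it held in 16 of 17 in dorDG, 18 of 19 in venDG, 8 of 14 in AstroSub1 and 9 of 12 in Oligodend1. In dorDG, FT against Sham gave 1 member without a filter on the mean, and 0 at an adjusted p of 0.05, with the replicate block (edgeR, 3 at an unadjusted p under 0.05), a fit that drops Sham replicate 3, which has no FT partner, in cells of 2% ribosomal UMIs or more, in cells under 2%, without InhibNeuron cells and without Granule, InhibNeuron, ExcitNeuron and Mossy cells, the last pair chosen after seeing the data, and leaving out replicates gave 0 to 7. Same-numbered FT and Sham replicates did not deviate together throughout (correlations -0.21 to 0.37 in dorDG, -0.15 to 0.27 in venDG, 0.09 to 0.35 for FT between regions), and the sources used here tie the number to no shared batch in these single-cell data. With that block, which drops venDG FT replicate 3, the FT comparison of regions called 1 member, as did the paired Sham comparison with its block and with DESeq2. The interaction called 1 with DESeq2, and leaving out replicates gave 0 to 1 there and in the Sham comparison. Without a filter ribosome-poor cells gave 26 members in dorDG and 27 in venDG. More members were then tested, and the share of all genes called in these fits is not given. The rise cannot be read as a result about the members. In Oligodend1, FT against Sham gave 0 at an adjusted p of 0.05 and in cells of 2% or more, 2 with the replicate block, and 0 to 3 with replicates left out. Ribosome-poor AstroSub1 cells gave 4 with DESeq2, 2 at an adjusted p of 0.05, 1 without cells near the boundary and 4 to 10 with replicates left out, and Oligodend1 cells gave 1 with DESeq2, 5 with no replicate block, 9 with library totals alone and 2 to 4 with replicates left out. The log2 value of Kif21a between FT and Sham in venDG, near 0, turned positive with DESeq2 (0.0031), no filter (0.12), cells under 2% (0.15) and the suffixed columns kept (0.037), and ran from -0.11 to 0.11 with replicates left out. Between regions in Sham, Kif21a turned to -0.21 in cells under 2% and ran from -0.026 to 0.24, and in FT Dynll1 turned to -0.026 in cells of 2% or more and -0.30 in cells under 2% and ran from -0.036 to 0.22. Without dorDG Sham replicate 3 Dync1h1 in ribosome-poor dorDG cells was at -0.22 and not called. The cause of these shifts was not tested. Cells of 2% or more could not be fitted in AstroSub1, Granule, Mossy, Oligodend2 and OPC, and DESeq2 gave no adjusted p for Kif2a in Oligodend1 or for Kif21a, Dynlt3 and Dynll2 in AstroSub1 and Dync1i1 in Oligodend1 between the classes. Most members lay under the filter and were not tested in the fits reported.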
